A study of Mus musculus with 2 samples.

Results

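The kinesin motor family was read here from every non-control probe whose annotated gene name starts with Kif and a digit or is Klc1 to Klc4. The rule found 69 probes for 42 genes, of 55681 probes and 22340 named genes on the array. RNA came from mouse hippocampal cultures of the ICR strain, prepared at embryonic day 16.5 and harvested at 12 days in vitro, and was hybridized to single-colour Agilent arrays. The control culture and the tetrodotoxin (TTX) culture had 1 array each, and both were grown in 5.5% serum with 5 µM Ara-C, which kills dividing glia. TTX blocks voltage-gated sodium channels and so stops action potentials, and it was present for 2 days at a dose that the labels give both as 2 µM and as 2 mM. The labels do not say how many dishes or embryos went into a sample. With 1 array a group no difference has a replicate check, the number of arrays limits the precision, and no test between conditions was made. In bulk RNA, fewer cells of a type and less RNA per cell cannot be told apart.

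Kinesins are motors that use ATP to walk along microtubules, mostly towards their plus ends, which in axons point away from the cell body. Kinesin-1, kinesin-2 and kinesin-3 carry vesicles, mitochondria and receptors into axons and dendrites, and light chains and adaptor proteins link the motors to their cargo. Other members work on the spindle of dividing cells or in cilia, so a culture of postmitotic neurons and dividing glia can hold several sets at a time.

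Feature Extraction called 54.2% of control spots and 52.2% of TTX spots well above background. The neuron markers Tubb3, Map2, Rbfox3, Syn1, Snap25 and Dcx were measured on both arrays, with a summed signal of 105027 in control and 105926 in TTX, with Rbfox3 lowest at -0.81 log2 and Dcx past 2-fold higher. All 6 astrocyte markers were measured as well, with sums of 45755 and 54865, most of which came from Aldoc (38691 and 44025). Gfap differed most, from 4916 to 8408 (0.77 log2), and 5 of the 6 were above 0 and 1 below it. A value with ± is a log2 difference, TTX minus control, with the error that Agilent's Feature Extraction software gives for the spots, which covers the spot and not the culture. Over probes with at least 5 spots the pooled SD of the difference was 0.15 log2, rising to 0.27 in the lowest 20% of signals.

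Most transport motors had nearly the same signal with and without TTX, and the differences sat with a few members: Klc2 and Kif21b were lower, Klc4 was higher, and the chromokinesin Kif22 was lower. Of the 42 genes, 25 were well above background on both arrays, 5 on the TTX array only, 2 on the control array only and 10 on neither. Among the 25 measured genes 1 was at least 2-fold higher and 1 at least 2-fold lower, where 2.06% and 3.38% of all 14114 measured genes were. At 1.5-fold the family had 3 higher and 2 lower genes, against 7.6% and 8.67% of all genes. Leaving out the lowest 20% of control signals left 21 members, of which 0 were 2-fold higher and 1 was 2-fold lower, against 1.47% and 3.71% of 12331 genes, and at 1.5-fold 1 was higher and 2 were lower, against 6.08% and 8.77%. These shares are near the background of the array. The members past 1.5-fold were Kif26b, Kif24 and Klc4 above 0 and Kif22 and Klc2 below it. For the 22 genes of neuronal transport and neuronal microtubules the median difference of the 19 measured (all but Kif5b, Kif13b and Kif26a) was -0.04, beside 0.01 for all genes, and 12 of the 19 (63.2%) stayed within 1.2-fold, beside 54.1% of all genes. The sign of a difference held under 3 other scalings (75th percentile, none, spike-in controls) in 23 of the 25 genes, the exceptions being Kif5a and Kif5c. The genes past 1.5-fold changed with these scalings. Klc4 fell short of 1.5-fold under all 3 (0.53, 0.53 and 0.47), and Kif21b passed it under all 3 (-0.66, -0.66 and -0.72). Kif6 passed it with the 75th percentile and with none (0.600 and 0.595).

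**Figure D1:**
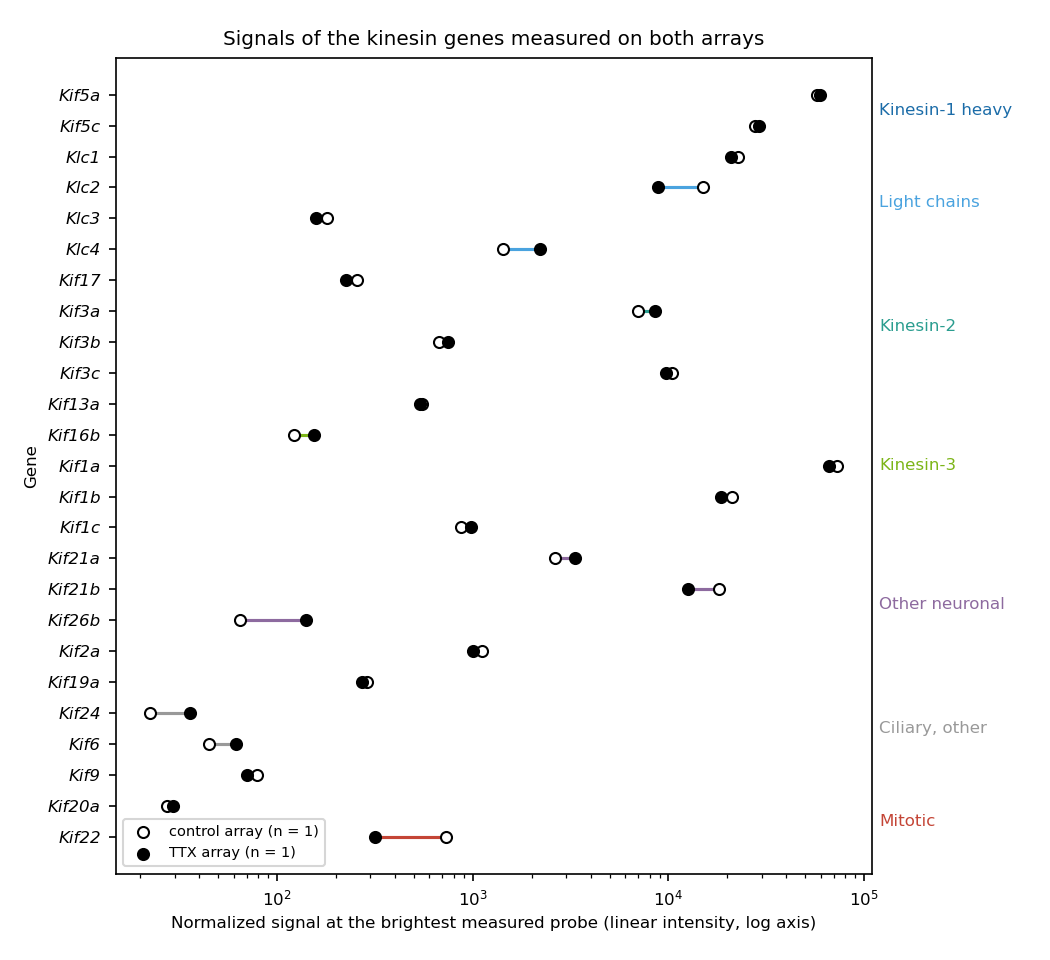
Normalized signal (horizontal log axis, linear intensity units) of the 25 kinesin genes measured on both arrays, at each gene's brightest measured probe, with the control array as open and the TTX array as filled points (1 array each). The pairs of points lie close together for most transport motors and apart for Klc2, Klc4, Kif21b, Kif26b and Kif22; signals of different genes come from different probes and give no order of abundance.

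Kinesin-1 is the founding motor, a pair of heavy chains (Kif5a, Kif5b or Kif5c) with a pair of light chains. Kif5a, the neuron-specific heavy chain, gave a signal of 57696 in control and 59735 in TTX at a probe printed 10 times (0.05 ± 0.06, SD over spots 0.03). Kif5c, also neuron-enriched, gave 27707 and 28974 (0.06 ± 0.20). The heavy chains were level between the cultures, and the sign of both differences turned with scaling. Kif5b, the heavy chain found in most tissues, was not well above background at either of its probes, where signals were between 4.62 and 6.69 on the arrays. A second Kif5a probe was below background too, with 4.61 and 6.24, while the first was bright.

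The light chains, which bind cargo, had 1 member past 1.5-fold in each direction. Klc1, the main neuronal light chain, gave 22667 in control and 20855 in TTX (-0.12 ± 0.20). Klc2 gave 14926 and 8790, a ratio of 1.70 in favour of control (-0.76 ± 0.20), and lay between -0.96 and -0.75 under the 9 alternatives that give a value for a single gene. Klc2 has 1 bright probe, so the alternatives that change the probe filter or average over probes could not move it. Klc4 gave 1427 and 2214 at its brighter probe (0.63 ± 0.20) and 852 and 1566 at its other probe (0.88 ± 0.20). Both Klc4 probes were thus higher in TTX, by 1.55-fold and 1.84-fold, although they lie only a short way apart on chromosome 17 and may not be independent, and spike-in scaling took the brighter probe to 0.47. Klc3 gave 181 and 158 (-0.19 ± 0.21), and its dimmer probe, at row 18, leaned the other way with 23.5 and 38.3 (0.70 ± 0.38). No direction was settled for Klc3.

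The probes that carry the light chain and Kif21b differences are shown by the first 30 bases of their 60 bases, in lower case as no base is singled out, with the mm9 position of the whole probe. Klc2 was read at chr19:5107748-5107807 (minus strand), Klc4 at chr17:46767574-46767633 and chr17:46767733-46767792 (minus strand), and Kif21b at chr1:138074490-138074549 (plus strand). The longest run of bases that any pair of probes for different kinesin genes had in common was 11.
Klc2: gtaaggcagtcactctctattttcagatgt
Klc4, brighter probe: ctgcctcactacaggtccacatatttcact
Klc4, other probe: aacatgatctctactttggagtcctctaga
Kif21b: tatttaagcctcatgctgtacatttctgtt

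Kinesin-2 motors pair Kif3a with Kif3b or Kif3c on the adaptor Kifap3, and Kif17 is a homodimer that carries NMDA receptor vesicles in dendrites. Kif3a gave 6967 in control and 8525 in TTX (0.29 ± 0.20), with 1528 and 1586 at its other probe (0.05 ± 0.20). Kif3b gave 668 and 750 (0.17 ± 0.20), with 0.14 at its dimmer probe, and Kif3c gave 10402 and 9661 (-0.11 ± 0.20). The adaptor Kifap3 gave 11596 and 11447 (-0.02 ± 0.20). None of these passed 1.5-fold. Kif17 had 3 probes: signals were 255 and 225 at the brightest (-0.18 ± 0.21) and 76.2 and 69.5 at the next (-0.13 ± 0.23), while the dimmest, which spans a splice junction on chromosome 4, gave 41.1 in control and 18.03 in TTX, where it was not well above background. All 3 leaned to control.

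Kinesin-3 motors are monomers or dimers that move synaptic vesicle precursors, dense-core vesicles and endosomes. Kif1a, the carrier of synaptic vesicle precursors and dense-core vesicles, gave 72743 in control and 66410 in TTX (-0.13 ± 0.20), with 1573 and 1704 at its other probe (0.12 ± 0.20). Kif1b gave 21011 and 18448 (-0.19 ± 0.20), and its dimmer probe, annotated to another transcript, gave 81.0 and 111 (0.46 ± 0.22). Kif1c, a motor first tied to traffic between Golgi and endoplasmic reticulum, gave 874 and 982 (0.17 ± 0.20), and its dim probes gave 22.7 and 28.4 (0.32 ± 0.39) and, above background on control alone, 30.6 and 18.3. Kif13a, a motor of recycling endosomes, gave 550 and 537 (-0.04 ± 0.20). Kif16b, which moves early endosomes, gave 122 and 154 (0.34 ± 0.21), the largest difference of the 5 measured members and within 1.5-fold. Kif13b was not well above background on either array (11.7 and 18.5).

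Among the other microtubule kinesins of neurons, Kif21b and Kif26b stood apart from Kif2a and Kif21a. Kif21b, a kinesin-4 that moves in dendrites and axons and affects microtubule dynamics, gave 18215 in control and 12515 in TTX, a ratio of 1.46 (-0.54 ± 0.20), and spike-in scaling took it to -0.72. Its relative Kif21a leaned the other way, with 2626 and 3335 (0.34 ± 0.20). Kif2a, a microtubule depolymerase that restrains axon collaterals, gave 1109 and 1003 (-0.14 ± 0.20), with -0.13 and 0.03 at its other probes. Kif26b, a kinesin-11 without motor activity known from kidney development in mouse, was the 1 family gene at least 2-fold higher, with 64.4 in control and 141 in TTX at row 38 of the array (1.13 ± 0.23). That call is not carried by the gene's other probe, which gave 40.2 and 22.1 at row 247 (-0.86 ± 0.35), so the mean over probes was 0.14. The Kif26b probes lie far apart on chromosome 1 and are annotated to different transcripts.
Kif26b, row 38 (chr1:180862723-180862782, mm9, plus strand): atgacccagaatgatggattaagtgccttg
Kif26b, row 247 (chr1:180646409-180646468, mm9, plus strand): ataagaacatatggctctaaagatggccct

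**Figure D2:**
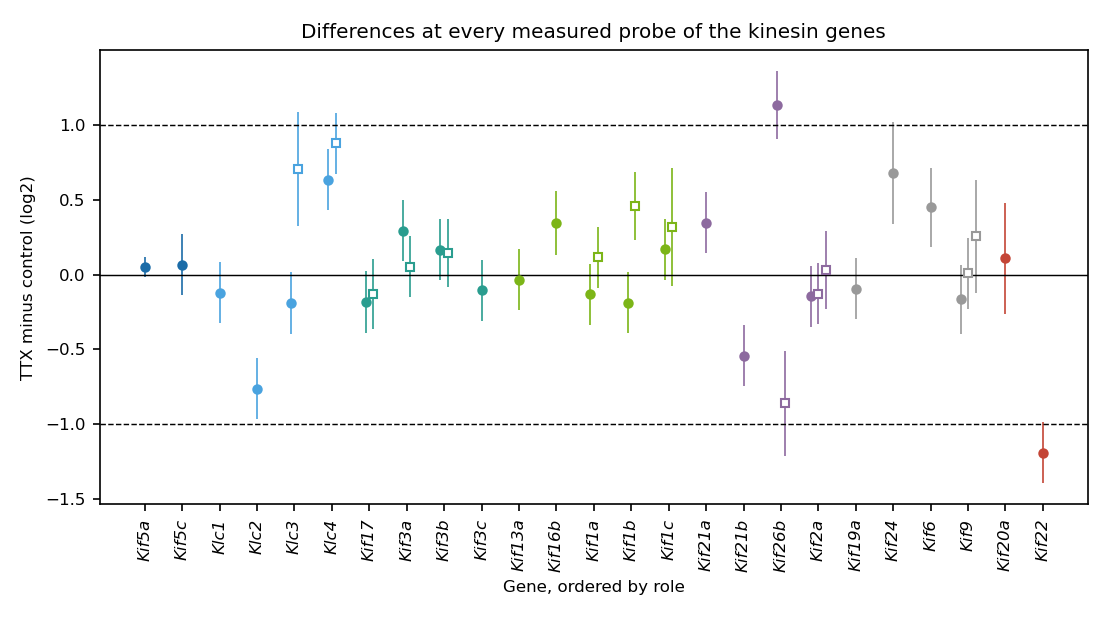
Log2 difference, TTX minus control, at every measured probe of the 25 genes, ordered by role, with filled circles for the brightest probe of a gene and open squares for its others; bars are the Feature Extraction error, and dashed lines mark 2-fold. Klc2, Kif21b and Kif22 lie below 0 and both Klc4 probes above it by more than their errors, while the probes of Kif26b lie on opposite sides of 0.

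Of the 11 genes with several measured probes, 6 had probes on both sides of 0, with a median range between probes of 0.24, against 0.20 over 4224 such genes on the array. Differences of this size therefore lie within what the probes of a gene can give. Klc2 and Kif21b have 1 probe each, so this check could not be made for them.

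The promoters of the family were searched for the cyclic AMP response element, which binds CREB, a transcription factor of activity-dependent expression. The search used TGACGTCA on both strands, in 250 bases before to 50 after the start of a gene as RefSeq gives it on GRCm38.p6, and 34 of the 42 genes had an entry. Kif5c, Klc1, Kif17 and Kif18a held it, where 1.79% of all 32851 promoters did. A kinesin gene counted if any of its entries held a motif (38 entries for the 34 genes). The share of all promoters is per entry, here and for the motifs further below, so the units differ. The motif was chosen with the array values known, and a match is a description and not a site of binding. The measured genes among the 4, Kif5c, Klc1 and Kif17, differed by 0.06, -0.12 and -0.18 between the cultures. The promoters of Kif5c and Klc1, partners in kinesin-1, are shown from 250 bases before to 30 after the start, with the element in capitals; its first base is 26 bases before the start in Kif5c and 33 before it in Klc1.
Kif5c (chr2:49619036-49619315, plus strand): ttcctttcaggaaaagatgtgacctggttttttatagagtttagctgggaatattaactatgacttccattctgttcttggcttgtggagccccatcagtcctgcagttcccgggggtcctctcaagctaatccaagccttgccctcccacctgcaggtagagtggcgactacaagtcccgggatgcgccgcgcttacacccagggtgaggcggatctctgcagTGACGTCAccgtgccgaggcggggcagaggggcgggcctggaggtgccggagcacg
Klc1 (chr12:111758618-111758897, plus strand): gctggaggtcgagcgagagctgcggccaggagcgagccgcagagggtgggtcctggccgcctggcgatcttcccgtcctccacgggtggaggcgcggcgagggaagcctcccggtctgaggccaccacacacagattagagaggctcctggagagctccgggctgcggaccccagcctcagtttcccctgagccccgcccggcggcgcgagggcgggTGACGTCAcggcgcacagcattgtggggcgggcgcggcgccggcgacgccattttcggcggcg

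The mitotic kinesins were mostly at background. Of 13 such genes, 2 were measured on both arrays, 2 on TTX only, 2 on control only and 7 on neither. The last were Kif2b, Kif4, its pseudogene Kif4-ps, Kif15, Kif18b, Kif20b and Kif23, with signals between 3.78 and 18.9. Kif22, the chromokinesin that pushes chromosome arms along the spindle, was the 1 family gene at least 2-fold lower, with 726 in control and 318 in TTX at row 18 (-1.19 ± 0.21). It stayed between -1.28 and -1.02 under the same 9 alternatives, of which the probe filters and the mean over probes could not move it. Of the 21 neighbouring spots within 2 positions, 1 was at least 2-fold lower in TTX, and their median difference was 0.17. Among brighter probes in the first 48 rows, which hold it, 3.43% were at least 2-fold lower. It has 1 probe here, shown by its first 30 bases.
Kif22 (chr7:134171255-134171314, mm9, minus strand): cctcttgacactaccttcttttaaaaatcc
Kif20a, which acts in cytokinesis, was near background with 27.3 and 29.4 (0.11 ± 0.37).

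Markers of dividing cells are given beside Kif22, and their part in its difference was not tested. Of 18 such genes 12 were measured, with a median of -0.13, 5 above and 7 below 0, and a summed signal of 3716 in control and 4025 in TTX. The 1 gene past 2-fold was Mki67, with 31.5 and 352 from a dim probe at row 120. Its 2 measured probes were both higher in TTX, by 2.79 and 3.48 log2. Without Mki67 the sums of the other 11 were 3684 and 3673, most of which came from Pcna (2428 and 2547). Their differences were within 2-fold, with a median of -0.15, 4 above and 7 below 0. Top2a, Cdk1, Aurkb, Bub1 and Ube2c were above background on neither array and Ccnb1 on control alone. Cenpe, a kinesin-7 of the kinetochore outside the naming rule, gave 61.3 and 60.0 (-0.03 ± 0.26), and Kifc1, a minus-end spindle motor, gave 57.1 and 93.3 (0.71 ± 0.23) from a dim probe.

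Promoters of mitotic genes often carry the cell cycle genes homology region (CHR), bound by the DREAM and MuvB complexes, some distance after a CCAAT box, bound by NF-Y. The CHR letters TTTGAA on either strand were in the promoters of 9 of the 11 mitotic kinesins with an entry (81.8%), in 2 of 17 neuronal ones (11.8%) and in 17.9% of all promoters. CCAAT on either strand was in 7 of the 11, in 6 of the 17 and in 37.4% of all. Kif22 and Kif11, lower in TTX and above background in TTX alone, both had a CCAAT box ahead of a CHR near the start: the CCAAT box began 54 and 45 bases before the start and the CHR 17 and 19 bases before it. Kif22 had a further pair, beginning at positions -233 and -215 from the start, which Kif11 did not. Both promoters are shown with CHR and CCAAT letters in capitals, which read TTCAAA and ATTGG where the match is on the opposite strand.
Kif22 (chr7:127042391-127042670, minus strand): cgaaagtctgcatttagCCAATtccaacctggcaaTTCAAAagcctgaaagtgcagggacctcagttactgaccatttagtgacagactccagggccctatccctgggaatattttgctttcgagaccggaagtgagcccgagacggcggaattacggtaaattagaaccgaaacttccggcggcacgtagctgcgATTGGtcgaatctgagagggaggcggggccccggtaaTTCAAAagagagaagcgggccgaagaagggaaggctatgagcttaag
Kif11 (chr19:37376132-37376411, plus strand): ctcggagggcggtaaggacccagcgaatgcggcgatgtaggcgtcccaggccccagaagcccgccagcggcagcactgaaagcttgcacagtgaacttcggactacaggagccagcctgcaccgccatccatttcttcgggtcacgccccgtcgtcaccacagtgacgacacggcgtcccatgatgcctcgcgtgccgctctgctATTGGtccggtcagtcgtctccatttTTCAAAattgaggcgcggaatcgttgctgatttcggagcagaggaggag

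Genes above background on 1 array only have a bound in place of a fold, computed with the dim array's value set to its probe's signal or, if higher, to the lowest signal that was well above background there. That lowest signal is not a limit for every spot: Kif7 at 18.8 on control and Kif14 at 23.4 on TTX exceeded it without being well above background. The bounds are thus approximate and not least changes. Of the 42 genes 5 were in this state on TTX alone and 2 on control alone, where 1.62% and 3.22% of all genes were. Of the 5, 4 had a bound of at least 2-fold, beside 54% of all such genes, and neither of the 2 did, beside 17.2%. With normexp background correction 2 of the 4, Kif11 and Kif26a, kept a bound past 2-fold, and those of Kif2c and Kif12 did not. Kif11, the spindle motor Eg5 that also acts on microtubules in axons, had a bound of 21.4-fold higher in TTX (signals of 12.3 and 343, row 51). Kif26a, a kinesin-11 without motor activity that is needed for the enteric nervous system in mouse, had a bound of 11.3-fold higher (11.01 and 180, row 302). Its other probe was below background on both arrays (3.88 and 4.07, row 278). The depolymerase Kif2c had a bound of 3.13-fold higher (7.89 and 50.1, row 4), with its other probe below background on both arrays (7.57 and 4.05, row 146). Kif12 had a bound of 2.75-fold higher (15.7 and 43.9, row 7). The bounds of the other members stayed under 2-fold. Kif7 gave 18.8 and 27.3 (0.54 ± 0.47, row 95), and Kif14, a motor of cytokinesis, gave 29.5 and 23.4 (-0.34 ± 0.40). For Kif7 and Kif14 the bound is the ratio of the probe's own signals, 1.45-fold higher and 1.26-fold lower. It is thus not a least change. Kif18a, which damps chromosome movement at metaphase, gave 25.7 and 12.003 (a bound of 1.31-fold lower).

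The rows of these spots and of Kif26b were set beside the array as a whole. Among probes in the lowest 20% of control signals or below, a TTX signal at least 4 times that of control was found for 7.69% in rows 1 to 48, 4.63% in rows 49 to 96 and 0.357% in rows 289 to 336. Kif2c, Kif12 and Kif11 lie in the first of these blocks or the next, and Kif26a in the last named. Differences of at least 16-fold were seen at 41 of 4252 such probes in rows 49 to 96, which hold Kif11. In rows 289 to 336 they were seen at 1 of 4196, which is the Kif26a probe. At 2-fold, 15.1% of dim probes in rows 1 to 48, which hold the higher Kif26b probe and the dimmer Klc3 probe, had the higher signal in TTX. In rows 241 to 288, which hold the other Kif26b probe, 4.95% did. Subtracting the median of the measured dim probes of each block left the Kif26b difference at 1.004. A median does not remove a minority of high probes, so this is no check of spot position. The part of spot position in the differences of Kif26b, Kif2c, Kif12, Kif11, Kif7, Kifc1, Mki67 and the dimmer Klc3 probe was not tested.

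Pixel values within the spots also differed. The TTX spot of Kif11 had a mean of 435 and a median of 258 over its pixels, with an SD of 325, and 7 of its 24 neighbours within 2 positions were at least 2-fold higher in TTX, 1 of them by 5.46 log2. The TTX spot of Kif26a had a mean of 241, a median of 243 and an SD of 37.7, and 2 of its 22 neighbours were at least 2-fold higher. The pixels of the Kif11 spot were thus uneven and those of the Kif26a spot even. Local background was 59 at the Kif11 spot and 61 at the Kif26a spot on the TTX array. At Kif2c the mean was 136 and the median 131, with 7 of 22 neighbours at least 2-fold higher, and at Kif12 the mean was 129 and the median 127, with 5 of 22. The first 30 bases of the Kif11 and Kif26a probes are shown because these were the largest bounds in the family.
Kif11 (chr19:37495755-37495814, mm9, plus strand): cctacctaaaagtgtatgcagagagtaagt
Kif26a (chr12:113419259-113419318, mm9, plus strand): gccagctttcttttaggattggtttagttt

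**Figure D3:**
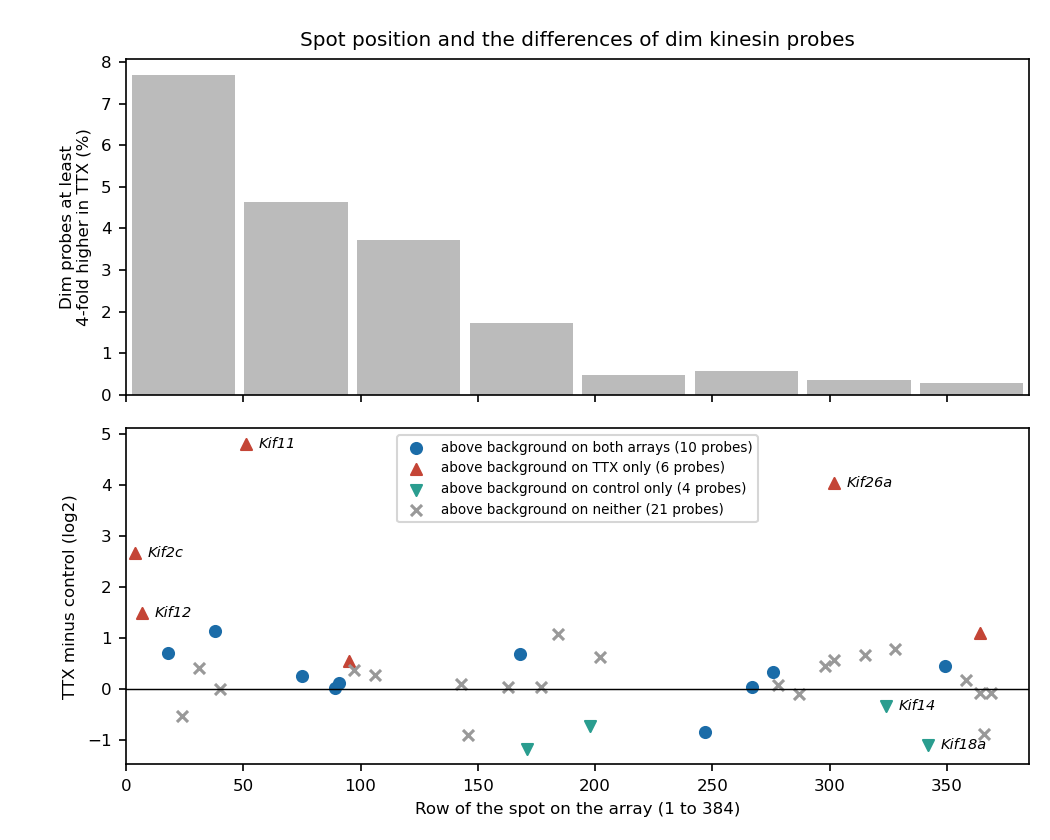
Upper panel, share of probes in the lowest 20% of control signals or below whose TTX signal was at least 4 times that of control (bars, percent), by block of 48 rows; lower panel, log2 difference of the dim kinesin probes against the row of their spot, marked by the arrays on which each was well above background. The share was 7.69% in the first block and 0.291% in the last, and of the 6 kinesin probes above background on TTX alone those of Kif2c, Kif12, Kif11 and Kif7 lie in rows 1 to 96 and those of Kif26a and Kif6 at rows 302 and 364.

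Of the ciliary, centriolar and remaining kinesins measured on both arrays, Kif24 and Kif6 had dim control signals (the lowest 20%) and Kif19a and Kif9 did not. Kif19a, which shortens cilia, gave 288 in control and 270 in TTX (-0.09 ± 0.21). Kif9 gave 78.6 and 70.1 at its brightest probe (-0.17 ± 0.23), with its other measured probes at 0.01 and 0.25. Kif6 gave 45.0 and 61.5 (0.45 ± 0.26), and its other probes gave 13.5 and 28.7, above background on TTX alone, and 11.02 and 18.8, on neither. Kif24, a depolymerase of the centriole, gave 22.4 and 35.9 at row 168 (0.68 ± 0.34), past 1.5-fold from a dim probe, and normexp background correction took it to 0.23 and ended that call. Kif27 was on neither array above background, and Kif7, a regulator of Hedgehog signalling, on TTX alone.

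Among the adaptors and activators of the kinesins, Lin7a and Lin7b differed most. Of 34 such genes 33 were measured, with a median of -0.07, 15 above and 18 below 0. Within 1.2-fold were 19 of the 33 (57.6%), near the 54.1% of all genes. None was at least 2-fold higher and 2 were at least 2-fold lower, where 2.06% and 3.38% of all measured genes were. These were Lin7a, from 2712 to 928 (-1.55 ± 0.20), and Lin7b, from 6403 to 2616 (-1.29 ± 0.20), small PDZ proteins that with Apba1 (also called Mint1) link Kif17 to its NMDA receptor vesicles. Apba1 itself gave 9634 and 10820 (0.17 ± 0.20), and Lin7c was dim with 32.9 and 30.6. Next were the liprin Ppfia4, from 1963 to 1158 (-0.76 ± 0.20), and the calsyntenin Clstn3, from 14298 to 8754 (-0.71 ± 0.20). Its relatives Clstn1, a cargo receptor for kinesin light chains, and Clstn2 were at 0.33 ± 0.20 and 0.20 ± 0.20.

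The mitochondrial adaptors leaned little: Trak1 was at 0.27, Trak2 at 0.36, Rhot1 at -0.12 and Rhot2 at -0.09. The JNK-interacting scaffolds Mapk8ip1, Mapk8ip2 and Mapk8ip3 were between -0.14 and -0.07. Arl8a and Arl8b, which recruit kinesins to lysosomes and synaptic vesicle precursors, were at 0.00 and 0.20, and Madd, an adaptor of Kif1a and Kif1b, was at 0.16. All of these were within 1.5-fold.

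Cytoplasmic dynein, the motor of the opposite direction, and its activator dynactin were mostly level. Of 28 genes 27 were measured, with a median of 0.01, 14 above and 13 below 0. Within 1.2-fold were 20 of the 27 (74.1%), beside 54.1% of all genes. None was past 2-fold, where 2.06% of all measured genes were higher and 3.38% lower, so a count of 0 in so short a list is near the background. The heavy chain Dync1h1 gave 26362 and 27907 (0.08 ± 0.20), and the dynactin subunit Dctn1 gave 41398 and 38267 (-0.11 ± 0.20). The farthest from 0 were Nde1 (0.71 ± 0.21, with its probes on both sides of 0), the adaptors Hook1 (0.62 ± 0.21) and Hook2 (0.45 ± 0.20), and the light chain Dynll1 (-0.53 ± 0.20). Besides Kifc1 and Cenpe, the measured kinesins outside the naming rule were Kifc2 (-0.16 ± 0.20) and Kifc3 (0.25 ± 0.20).

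**Figure D4:**
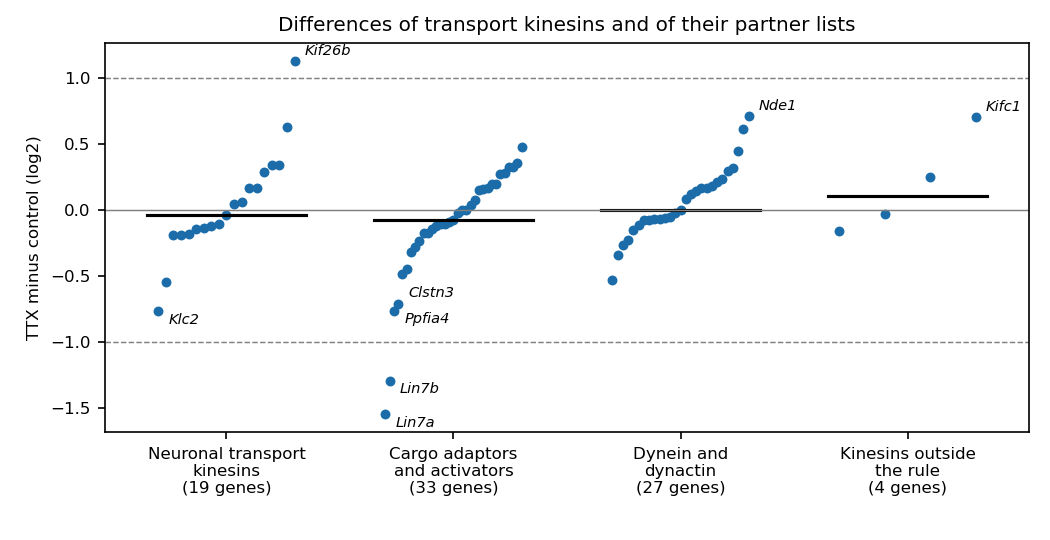
Log2 difference, TTX minus control, of each measured gene (points) at its brightest measured probe for the 19 neuronal transport kinesins, 33 adaptors and activators, 27 dynein and dynactin genes and 4 kinesins outside the naming rule; black lines are medians and dashed lines mark 2-fold. The medians lie between -0.07 and 0.11, and Lin7a, Lin7b and Kif26b are the genes past 2-fold.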

How the data were processed

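Per the file headers, the scanner files the authors deposited give linear spot intensity after background subtraction and detrending within each array. The headers name Feature Extraction 10.7.1.1, and the submitters' processing notes name 9.5.1.1. A deposited table of quantile-normalized intensity served as an alternative. Quantile normalization is named in the series' design text, and log2 values were computed here from the deposited intensity. Flags for outlier and well-above-background spots (0 or 1, another kind of value) were deposited in the same files.

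Processed signals of non-control spots were quantile normalized, and the log2 values of a probe's spots were averaged. Spots marked as outliers (131 on control, 170 on TTX, none of a kinesin probe) were left out, and no spot was saturated. Probes counted as measured if, on each array, a share of 0.5 or more of their spots was well above background, and the brightest such probe stood for its gene. Genes were named through RefSeq symbols of GRCm38.p6 (31399 of 55681 probes, all 69 kinesin probes). Probe coordinates are those of mm9.

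No test was made, and a size rule of 2-fold was used. The members and lists were chosen with earlier results of these data known. Named were all measured members of the neuronal groups, members past 1.5-fold, bounds of at least 2-fold, and of each partner list the genes past 2-fold and the 4 farthest from 0. Other partners and dim members were named for their role, after their values were seen. The steps were tested on simulated data. Python 3.11.15, numpy 2.4.6, pandas 2.3.3 and limma 3.58.1 in R 4.3.3 were used. The promoter motifs were chosen after the values were seen.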

Additional observations from a re-analysis of the deposited data

How the results depend on the processing

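No paired analysis was possible because each group has 1 array. Of the 13 alternatives 9 give values for single genes, and under these Kif22 and Kif26b kept their sign. The probe filters and the mean over probes cannot move a gene with 1 bright probe, such as Kif22. With members in the later rows alone both drop out, and the Kif26b probe there has the opposite sign (-0.86). The family counts of 1 higher and 1 lower became 0 higher with normexp background correction (offset 50), whose offset shrinks dim differences by construction, and 0 higher with the mean over probes. They were 6 and 2 when dim probes were not filtered, 3 and 2 at 1.5-fold, and 0 and 0 at 3-fold or with members in the later rows of the array alone (the last 4 blocks of 48), where fewer genes enter. The adaptor count of 2 lower became 1 in those rows, 4 at 1.5-fold and 0 at 3-fold. At 1.5-fold 1 kinesin outside the naming rule and 2 dynein genes were higher. Of all measured genes 7.6% were higher and 8.67% lower at 1.5-fold. The median of neuronal transport kinesins was 0.12 in those rows. The mitotic median of -0.54, over only 2 genes, was -0.016 with no filter and -1.19 with a stricter one that left Kif22 alone. With normexp the log2 bounds were 2.43 for Kif11, 1.51 for Kif26a, 0.63 for Kif2c and 0.53 for Kif12, Kif26b was at 0.74 and Kif24 at 0.23. Of the values for single genes, for bounds and for the median of all genes, 13 moved and 253 did not. The 253 include genes with 1 bright probe under the probe filters and the mean over probes, which cannot move them. Spike-in scaling took the median of all genes to -0.09. Dim signals limit the members at background.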
